A study of Mus musculus with 40 samples.

Results

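The genes described here encode the general transcription factors of RNA polymerase II and the TATA-binding protein (TBP) with its associated factors (TAFs). They were chosen by symbol, as every gene named Taf or Gtf2a, Gtf2b, Gtf2e, Gtf2f or Gtf2h followed by its number, together with Tbp and Tbpl1, and each was read from the probe set with the highest mean over all arrays among those annotated to that gene alone. This gave 37 genes of 18193 with a probe set of their own. Of the 37, 35 passed the filter on low values and were tested. Taf7l and Taf7l2, paralogs of the TFIID subunit gene Taf7, stayed near the floor on every array and were not tested. Their log2 values ran from 3.04 to 5.38 and from 2.98 to 4.96. Taf9 was not among the 37, because its probe sets are annotated to more than 1 gene.

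A gene is read by RNA polymerase II only after a preinitiation complex has formed at its start. TFIID, made of TBP and a shell of TAFs, binds the core promoter, TFIIA and TFIIB dock on TBP, TFIIF brings in the polymerase, and TFIIE and TFIIH follow, TFIIH opening the DNA and phosphorylating the polymerase. Several TAFs also sit in the coactivator SAGA, and a separate set, Taf1a to Taf1d, forms with TBP the selectivity factor SL1 of RNA polymerase I, which makes ribosomal RNA. In the mouse the egg is transcriptionally silent at fertilization, maternal RNA is degraded over the first cell cycles, and the main wave of embryonic transcription starts at the 2-cell stage, so these genes encode the machinery that the new wave needs.

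The study measured poly(A) RNA of mouse embryos of the B6D2 background on Affymetrix expression arrays, asking how cloned embryos differ from fertilized ones when their genome is first read. At both the 1-cell and the 2-cell stage there were 5 groups. These were fertilized embryos, embryos made by somatic cell nuclear transfer (SCNT) with a cumulus cell of a female B6D2 mouse as nuclear donor, parthenogenetic embryos, which are activated without sperm, and fertilized and SCNT embryos cultured with α-amanitin (which blocks RNA polymerase II). Parthenogenetic embryos had no α-amanitin group. Each of the 10 groups had 4 arrays, except that 1 array of untreated 1-cell SCNT embryos came without values, which left replicates 1, 3 and 4. The labels name MEMα as the culture medium of SCNT embryos and KSOM for a fertilized sample, so medium and origin cannot be told apart. The number of embryos behind an array, and whether arrays of a group came from separate pools, are not given in the sources used here, so the p-values measure the spread between arrays, which may be technical.

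Levels are log2 of the deposited intensity plus a constant of 6.9, quantile normalized, and have no unit beyond that. The constant compresses the differences of dim genes, and the overall median was 5.34. Differences are given on the same log2 scale with the standard error of the limma fit, in which all 39 arrays entered at once. A gene was called higher or lower at a Benjamini-Hochberg adjusted p below 0.05 over the 14880 genes tested, and "rose" and "fell" are used of called genes only. Because every array was scaled to the same distribution, fewer transcripts per embryo and a smaller share of the RNA cannot be told apart, and levels of different genes are not compared. Values of single arrays follow the replicate numbers, which do not pair arrays across groups, and the small number of arrays limits the precision.

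Replicate arrays correlated at 0.94 to 0.98. All 12 measured oocyte markers passed the filter. One of them, Mos, stayed below the overall median on all untreated 2-cell arrays and all treated SCNT 2-cell arrays. The summed intensity of the 12 was 39300 to 57000 on 1-cell arrays and 13900 to 20000 on untreated fertilized and SCNT 2-cell arrays. It was 26900 to 32800 on parthenogenetic and 33200 to 41900 on α-amanitin 2-cell arrays. The 6 measured of 9 markers of the 2-cell stage summed to 8050 to 15300 on untreated 2-cell arrays and to 340 to 1280 on treated ones. Markers of cumulus cells, sperm and blood summed to at most 877, 241 and 293 on any array. The 18S ribosomal control averaged 10.25 in fertilized, 10.81 in SCNT and 11.22 in parthenogenetic untreated 2-cell embryos against 12.72 to 13.25 in the other groups, and the part of that difference in the results below was not tested.

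**Figure D1:**
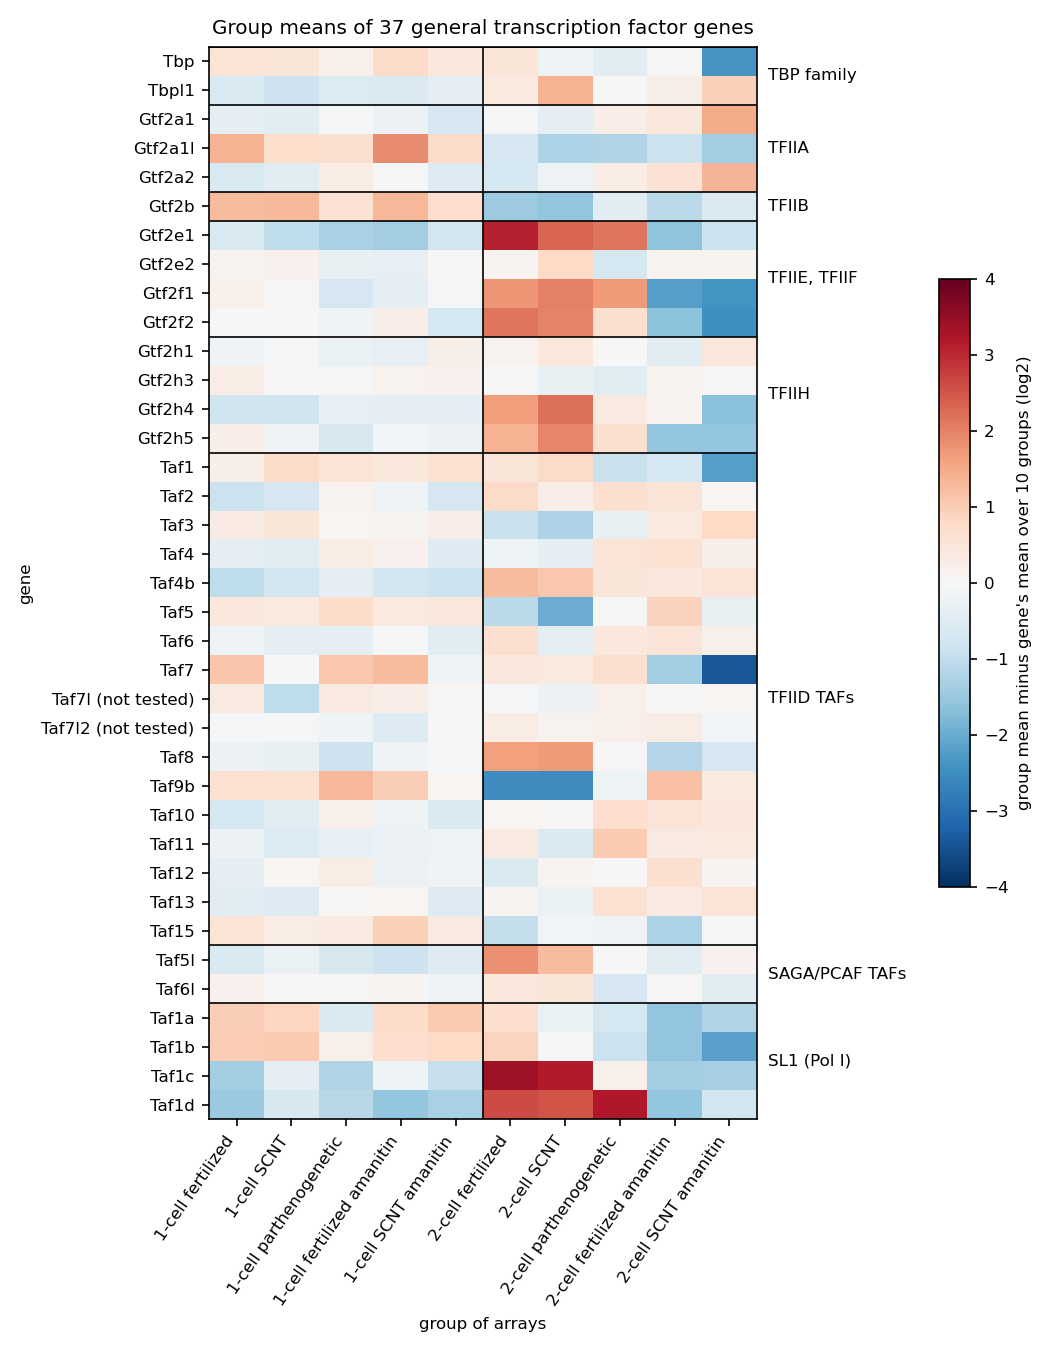
Mean log2 intensity of each of the 37 genes (rows, ordered by complex) in each of the 10 groups (columns), minus the gene's own mean over the groups, with colour for higher or lower. In fertilized 2-cell embryos Taf1c was 8.51 untreated and 3.73 with α-amanitin, and Taf9b was 7.46 and 11.15. Taf1c was above the overall median on untreated 2-cell arrays alone, so its difference was built into its being tested.

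From the 1-cell to the 2-cell stage some transcripts of the machinery rose and others fell. In fertilized embryos, subunits of TFIIF, TFIIH and SL1 and the TFIIE gene Gtf2e1 rose, by up to 4.09 on the log2 scale apart from Taf1c. Gtf2b, Gtf2a1l and the TFIID genes Taf9b, Taf5 and Taf3 fell, by up to 3.09. Taf1c and Gtf2e1 passed the filter through untreated 2-cell arrays alone, so their rises were built into their being tested. Taf15 passed almost only through 1-cell arrays, so its fall was built in likewise. Of the 35 tested genes 18 rose and 8 fell, where 60.1% of all genes were called (25.8% higher, 34.3% lower). Their median difference was 0.29 against -0.13 over all genes. In SCNT embryos 15 rose and 8 fell, where 60.8% of all genes were called (26.2% higher, 34.5% lower). In parthenogenetic embryos 19 rose and 9 fell, where 49.2% of all genes were called (21.7% higher, 27.5% lower). The arrays of the stages did not overlap for 22, 24 and 26 members in the 3 origins, and for 55%, 62.8% and 48.6% of all genes. With each array centred on its median in place of quantile normalization the parthenogenetic count became 9 higher and 16 lower. Of the 14871 genes tested that way 2119 were higher and 5590 lower, and the median over all genes moved from -0.04 to -0.26.

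TBP, the DNA-binding core shared by TFIID, SL1 and the RNA polymerase III factor TFIIIB, did not pass between stages in fertilized embryos and fell in SCNT and parthenogenetic ones. In fertilized embryos Tbp measured 9.74, 9.72, 9.52 and 9.52 at the 1-cell stage and 9.49, 9.61, 9.58 and 9.54 at the 2-cell stage, overlapping ranges with a difference of -0.07 ± 0.17 (adjusted p = 0.759, n = 4 and 4). On SCNT arrays it went from 9.54, 9.52 and 9.58 to 8.96, 8.43, 8.94 and 9.2, and on parthenogenetic arrays from 9.26, 9.31, 9.39 and 9.05 to 8.5, 8.64, 8.72 and 8.62. Every 2-cell array of these 2 origins was below every 1-cell array, with differences of -0.66 ± 0.19 (adjusted p = 0.00217) and -0.63 ± 0.17 (adjusted p = 0.0022). The difference between the SCNT and the fertilized change, -0.59 ± 0.25, did not pass the test (adjusted p = 0.103). A second, dimmer probe set of Tbp, above the overall median on 18 arrays, was lower at the 2-cell stage by 0.7, 1.18 and 1.75 in the 3 origins. Median centring made the parthenogenetic difference of Tbp -1.15.

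Tbpl1 encodes a TBP-like factor that binds TFIIA and TFIIB but not the TATA box. Its values were 6.71, 7.46, 7.06 and 7.59 in fertilized 1-cell embryos and 8.07, 8.33, 8.32 and 8.19 in fertilized 2-cell embryos. SCNT embryos went from 7.12, 6.88 and 7.04 to 9.45, 9.28, 9.01 and 9.12, the highest of the untreated arrays. Parthenogenetic embryos went from 7.39, 7.48, 6.67 and 7.57 to 8.07, 7.49, 7.82 and 7.85, where the stages overlap. The rises were 1.02 ± 0.19, 2.2 ± 0.2 and 0.53 ± 0.19, and that in SCNT exceeded that in fertilized embryos by 1.18 ± 0.28 (adjusted p = 0.00166). The parthenogenetic rise was no longer called without 1-cell replicate 3 (0.33) or 2-cell replicate 1 (0.44). These values hold for 1 probe set only. A second, dimmer one differed by -0.19, -0.65 and 0.49, and with both averaged the fertilized rise (0.41) and the SCNT excess (0.36) were not called.

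Among the 15 tested TAFs of TFIID 7 rose and 5 fell in fertilized, 4 and 3 in SCNT, and 8 and 4 in parthenogenetic embryos. The 5 include Taf15, whose fall was built into its being tested. Over all genes 25.8% rose and 34.3% fell in fertilized, 26.2% and 34.5% in SCNT, and 21.7% and 27.5% in parthenogenetic embryos. Taf4b, the germ-cell paralog of the scaffold subunit Taf4, rose in all 3. It went from 8.66, 8.43, 8.91 and 8.31 to 10.84, 10.95, 10.8 and 10.76 on fertilized arrays, from 9.02, 8.65 and 8.85 to 10.67, 10.69, 10.73 and 10.55 on SCNT arrays, and from 9.22, 9.28, 9.18 and 9.13 to 10.2, 10.03, 9.99 and 10.01 on parthenogenetic arrays. No 2-cell array overlapped a 1-cell array, and the rises were 2.26 ± 0.11, 1.83 ± 0.12 and 0.86 ± 0.11 (adjusted p = 9.94e-21, 9.38e-17 and 1.72e-08). The parthenogenetic rise was smaller than the fertilized by 1.4 ± 0.16 (adjusted p = 2.01e-09), and 3 probe sets of Taf4b were higher at the 2-cell stage in each origin. Median centring reduced the parthenogenetic rise to 0.33.

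Taf4 itself did not pass in fertilized or SCNT embryos. It measured 9.78, 9.93, 9.6 and 9.72 in fertilized 1-cell and 9.85, 9.9, 10.12 and 9.94 in fertilized 2-cell embryos, with overlap and a difference of 0.2 ± 0.1 (adjusted p = 0.0859). The SCNT arrays read 9.79, 9.64 and 9.57 and then 9.44, 9.86, 9.7 and 9.94, again overlapping (0.07 ± 0.11, adjusted p = 0.602). The parthenogenetic arrays read 10.47, 10.42, 10.43 and 10.42 and then 10.56, 10.53, 10.77 and 10.82. That shift of 0.24 ± 0.1 was called, but the call was lost without any 1-cell array (0.23 to 0.25) or without 2-cell replicate 3 (0.2) or 4 (0.19), and median centring turned it to -0.4.

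Taf9b encodes a histone-fold partner of Taf6 and a paralog of Taf9, and it fell further than any other member in fertilized and in SCNT embryos. Fertilized arrays went from 11.03, 10.56, 10.23 and 10.39 to 7.26, 7.5, 7.77 and 7.32, SCNT arrays from 10.41, 10.47 and 10.81 to 7.73, 6.83, 7.33 and 7.85, and parthenogenetic arrays from 11.21, 11.29, 11.34 and 11.26 to 9.9, 9.84, 9.65 and 9.65. The stages were apart on every array of each origin. The differences were -3.09 ± 0.17, -3.13 ± 0.18 and -1.52 ± 0.17 (adjusted p = 3.17e-19, 2.76e-18 and 5.69e-10), and the parthenogenetic fall was smaller than the fertilized by 1.57 ± 0.24 (adjusted p = 1.08e-06). Its second probe set stayed below the overall median on all arrays and showed no such fall (-0.29, 0.28 and -0.34).

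Taf5, whose protein carries WD40 repeats and holds TFIID's lobes together, fell in all 3 origins. It read 11.09, 11.03, 10.75 and 10.78 and then 9.43, 9.22, 9.42 and 9.59 in fertilized embryos, 10.8, 10.87 and 11 and then 8.41, 8.42, 8.65 and 8.46 in SCNT embryos, and 11.21, 11.21, 11.21 and 11.22 and then 10.62, 10.52, 10.5 and 10.49 in parthenogenetic embryos. Again no arrays overlapped. The differences were -1.5 ± 0.09, -2.4 ± 0.1 and -0.68 ± 0.09, and the SCNT fall was larger than the fertilized by 0.91 ± 0.13 (adjusted p = 2.17e-06). Median centring made the parthenogenetic difference of Taf5 -1.28.

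Taf3, a TFIID subunit that reads methylated histone H3, fell by 1.22 ± 0.15 in fertilized embryos, from 9.84, 10.29, 10.19 and 10.24 to 8.7, 8.42, 9.4 and 9.16, and by 1.72 ± 0.16 in SCNT embryos, from 10.36, 10.35 and 10.14 to 8.69, 8.29, 8.39 and 8.88. In parthenogenetic embryos it went from 9.93, 9.98, 9.79 and 9.78 to 9.41, 9.6, 9.54 and 9.41. There the stages were apart but close (-0.38 ± 0.15), and the call was lost without replicate 1 or 2 of the 1-cell arrays (-0.36 and -0.34) or replicate 1 or 4 of the 2-cell arrays (-0.35 and -0.36).

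Taf6 and Taf11, both histone-fold subunits, rose in fertilized and parthenogenetic embryos, and their SCNT values at the stages overlap. Taf6 went from 8.74, 8.58, 8.62 and 8.34 to 9.6, 9.4, 9.34 and 9.23 in fertilized (0.82 ± 0.14) and from 8.45, 8.3, 8.49 and 8.38 to 9.02, 9.06, 9.16 and 9.53 in parthenogenetic embryos (0.78 ± 0.14, and 0.29 and not called after median centring). Its SCNT arrays read 8.22, 8.34 and 8.58 and then 8.28, 8.49, 8.61 and 8.27, and the SCNT change was 0.79 ± 0.21 below the fertilized (adjusted p = 0.0062). Taf11 went from 7.69, 8.12, 7.8 and 7.9 to 8.37, 8.64, 8.73 and 8.16 in fertilized and from 7.96, 8.01, 7.41 and 7.75 to 9.22, 8.91, 9.18 and 9.29 in parthenogenetic embryos, rises of 0.6 ± 0.15 and 1.37 ± 0.15. Its SCNT arrays stayed at 7.46, 7.61 and 7.65 and then 7.53, 7.47, 7.49 and 7.54.

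The other TAFs of TFIID are given by group means. Taf8, which carries Taf10 into the nucleus, rose from 5.78 to 7.66 in fertilized and from 5.73 to 7.73 in SCNT embryos, levels close to the overall median at the 1-cell stage. In parthenogenetic embryos it went from 5.17 to 6.03, a call lost without 1-cell replicate 4 (0.66), and a second, dimmer probe set was lower by 0.97, so that the average of both turned to -0.06. Taf2, which contacts the initiator, rose by 1.65 ± 0.11, 0.94 ± 0.12 and 0.5 ± 0.11, the last turning to -0.03 after median centring. Its second probe set differed by -0.14 in fertilized and 0.01 in SCNT embryos, and with both averaged the 3 values were 0.76, 0.47 and -0.31, the last not called. Taf10, a histone-fold subunit shared with SAGA, rose by 0.78 ± 0.14, 0.51 ± 0.15 and 0.49 ± 0.14, but median centring turned the last 2 values to -0.04 and -0.06. Taf13, the partner of Taf11, rose in fertilized (0.56 ± 0.1) and parthenogenetic embryos (0.57 ± 0.1, and 0.02 after median centring). Taf1, the largest subunit, fell in parthenogenetic embryos from 8.05 to 6.59 (-1.46 ± 0.16) on its brighter probe set, and at -0.53 with its probe sets averaged it was not called. Taf15, an RNA-binding protein found with TFIID, fell from 5.66 to 4.16 in fertilized embryos (-1.5 ± 0.29, and -0.98 with the larger constant of 22.1). It passed the filter almost only through 1-cell arrays, so a fall was built into its being tested. Taf7, which binds Taf1, differed by -0.7 ± 0.26 in fertilized embryos, a call lost without 1-cell replicate 1 (-0.4) or 2-cell replicate 2 (-0.63) or 4 (-0.62). Taf12 passed in no origin (-0.22, 0.06 and -0.28).

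In TFIIA the germ-cell form fell, and the general large subunit differed by an amount that depended on the probe set. Gtf2a1l, the germ-cell paralog of the large subunit gene, fell from 7.56, 7.45, 7.77 and 8.1 to 5.97, 5.51, 5.58 and 5.56 on fertilized arrays, from 6.89, 7.02 and 7.21 to 5.01, 5, 5.24 and 5.02 on SCNT arrays, and from 7.06, 7.07, 6.97 and 6.76 to 5.1, 4.8, 5.43 and 5.23 on parthenogenetic arrays. All 2-cell values lay below all 1-cell values and near the overall median of 5.34. The differences were -2.07 ± 0.3, -1.97 ± 0.32 and -1.82 ± 0.3. Gtf2a1 was between 9.49 and 10.09 on every untreated 1-cell array and between 9.55 and 10.41 on every untreated 2-cell array. Its differences were 0.32 ± 0.12, 0.12 ± 0.12 and 0.31 ± 0.12 on the brightest probe set. The other 2 probe sets, above the overall median on all 39 arrays, were higher by 1.28 and 0.6 in fertilized, 0.56 and 0.41 in SCNT and 0.39 and 0.37 in parthenogenetic embryos. With the probe sets averaged the fertilized difference was 0.73 and the SCNT difference, at 0.36, was called. On the brightest probe set the fertilized call was lost without 1-cell replicate 3 (0.27) or 2-cell replicate 4 (0.22), the parthenogenetic without 1-cell replicate 2 or 3 (0.3 and 0.29) or 2-cell replicate 1 or 3 (0.29 and 0.28), and median centring gave 0.1 and -0.28. Gtf2a2, the small subunit, passed in no origin (-0.09, 0.25 and 0.01).

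Gtf2b encodes TFIIB, which bridges TBP and the polymerase, and had the second largest fall in the same origins. It went from 12.41, 12.59, 12.63 and 12.61 to 9.86, 9.93, 9.63 and 9.92 on fertilized arrays, from 12.58, 12.59 and 12.53 to 9.89, 9.51, 9.78 and 9.59 on SCNT arrays, and from 11.75, 11.83, 11.89 and 11.93 to 10.79, 10.84, 10.63 and 11.05 on parthenogenetic arrays. Every 2-cell array was below every 1-cell array of its origin. The differences were -2.72 ± 0.11, -2.87 ± 0.12 and -1.02 ± 0.11 (adjusted p = 3.46e-23, 1.06e-22 and 3.58e-10), and the parthenogenetic fall was smaller than the fertilized by 1.7 ± 0.16 (adjusted p = 2.66e-11). Median centring made the parthenogenetic difference -1.6.

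Both genes of TFIIF, which brings in the polymerase, rose in every origin, whereas of the TFIIE genes Gtf2e1 rose in every origin and Gtf2e2 in SCNT embryos. Gtf2f1, the large TFIIF subunit, rose from 9.58 to 11.12, from 9.41 to 11.38 and from 8.69 to 11.07 in fertilized, SCNT and parthenogenetic means. Gtf2f2, the small subunit, went from 6.86, 6.9, 7 and 7.12 to 9.04, 9.16, 9.08 and 9.28 on fertilized arrays, from 7.13, 7.09 and 6.75 to 8.52, 9.04, 9.06 and 9.31 on SCNT arrays and from 6.93, 6.62, 6.9 and 6.92 to 7.63, 7.52, 7.69 and 7.69 on parthenogenetic arrays. No arrays overlapped, and the rises were 2.17 ± 0.22, 1.99 ± 0.24 and 0.79 ± 0.22. The last was smaller than the fertilized by 1.38 ± 0.31 (adjusted p = 0.000403), and at 0.53 it was not called after median centring.

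Gtf2e1 encodes the large subunit of TFIIE. It read 4.84, 5.28, 5.31 and 4.05 and then 8.42, 8.53, 8.62 and 8.65 in fertilized embryos, 4.19, 4.72 and 4.53 and then 7.32, 7.95, 8.08 and 7.94 in SCNT embryos, and 4.56, 3.56, 4.08 and 4.53 and then 7.77, 7.5, 7.5 and 7.67 in parthenogenetic embryos. All 1-cell values were below the overall median, and all 2-cell values above it. The rises were 3.69 ± 0.3, 3.34 ± 0.32 and 3.43 ± 0.3. Gtf2e1 and Taf1c passed the filter through untreated 2-cell arrays alone, so that a difference from the other groups was built into their being tested. The second probe set of Gtf2e1 was below the median on all arrays and differed by 0.39, 0.02 and 0.72.

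Gtf2e2, the small TFIIE subunit, read 9.35, 9.35, 9.25 and 9.45 and then 9.2, 9.68, 9.29 and 9.23 in fertilized embryos, with overlap and a difference of 0 ± 0.13 (adjusted p = 0.992). The SCNT arrays went from 9.34, 9.49 and 9.38 to 9.8, 9.97, 10.14 and 10.27 and the parthenogenetic arrays from 8.9, 9.16, 8.76 and 8.94 to 8.78, 8.38, 8.69 and 8.32. The SCNT arrays did not overlap (0.64 ± 0.14, and 0.17 and not called after median centring). The parthenogenetic arrays did overlap, and their difference of -0.4 ± 0.13 was not called without 1-cell replicate 2 or 2-cell replicate 4 (both -0.32).

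Of the 4 TFIIH core subunits measured here, 3 rose in each origin, where 25.8%, 26.2% and 21.7% of all genes rose. Gtf2h4, which anchors the XPB helicase, rose from 7.73 to 10.19 (2.45 ± 0.19), from 7.74 to 10.72 (2.98 ± 0.2) and from 8.21 to 8.89 (0.68 ± 0.19, and 0.21 and not called after median centring). Gtf2h5, the smallest subunit, rose by 1.1 ± 0.15, 2.08 ± 0.16 and 1.28 ± 0.15. Gtf2h1 was higher by 0.29 ± 0.1, 0.5 ± 0.11 and 0.29 ± 0.1, calls that median centring removed in each origin (0.1, 0.06 and -0.22) and that were lost without fertilized 1-cell replicate 3 (0.24) or parthenogenetic 1-cell replicate 1 (0.23). Gtf2h3 passed in no origin (-0.31, -0.3 and -0.39). With probe sets averaged Gtf2h4 rose by 1.61 in fertilized embryos, and Gtf2h5 by 1.3 in SCNT and 0.6 in parthenogenetic embryos.

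Of the TAF paralogs that belong to SAGA, Taf5l rose and Taf6l did not pass. Taf5l went from 6.94, 6.72, 7.01 and 7.06 to 9.54, 9.59, 9.08 and 9.23 in fertilized embryos, from 7.25, 7.25 and 7.3 to 8.84, 8.61, 8.95 and 8.76 in SCNT embryos and from 6.92, 7.03, 6.64 and 6.94 to 7.57, 7.38, 7.67 and 7.63 in parthenogenetic embryos, each without overlap. The rises of 2.43 ± 0.15, 1.52 ± 0.17 and 0.68 ± 0.15 differed, the SCNT by 0.91 ± 0.23 and the parthenogenetic by 1.74 ± 0.22 from the fertilized (adjusted p = 0.00312 and 2.63e-08). Taf6l differed by 0.25 ± 0.32, 0.52 ± 0.34 and -0.74 ± 0.32.

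The largest rise in each origin was that of an SL1 gene, Taf1c in fertilized and SCNT and Taf1d in parthenogenetic embryos. For Taf1c, which passed the filter through untreated 2-cell arrays alone, a rise was built into its being tested. Taf1c, a subunit that binds ribosomal DNA promoters with TBP, read 4.32, 3.58, 3.51 and 3.47 and then 8.78, 8.88, 8.12 and 8.25 in fertilized embryos, and 3.77, 5.28 and 5.17 and then 8.5, 7.76, 8.87 and 8.05 in SCNT embryos. In parthenogenetic embryos it read 4.38, 3.73, 3.56 and 3.94 and then 3.89, 6.05, 5.98 and 5.36, so that 2-cell replicate 1 stayed among the 1-cell values. The rises were 4.78 ± 0.38, 3.56 ± 0.42 and 1.42 ± 0.38, and the parthenogenetic rise was smaller than the fertilized by 3.37 ± 0.54 (adjusted p = 3.42e-06). Most of the Taf1c arrays above the overall median were fertilized and SCNT ones, so this difference was partly built in too. With the larger constant the parthenogenetic rise was 0.92.

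Taf1d went from 6.67, 6.59, 6.34 and 6.17 to 10.31, 10.59, 10.65 and 10.59 in fertilized embryos, from 7.21, 7.41 and 7.22 to 10.23, 10.17, 10.67 and 10.64 in SCNT embryos and from 6.74, 7.01, 6.61 and 6.8 to 11.03, 11.11, 11.09 and 11.29 in parthenogenetic embryos. The rises were 4.09 ± 0.18, 3.15 ± 0.19 and 4.34 ± 0.18 (adjusted p = 1.66e-22, 8.32e-18 and 1.22e-22). All 7 probe sets of Taf1d were higher at the 2-cell stage in fertilized embryos, by 1.23 to 4.21. In parthenogenetic embryos a dim probe set differed by -0.22 and the others were higher by 1.61 to 4.34, and their average rose by 2.32. Taf1a and Taf1b, the remaining SL1 subunits, did not rise. Taf1a fell by 1.11 ± 0.12 in SCNT embryos and differed by -0.31 ± 0.11 in fertilized embryos, a call lost without 1-cell replicate 4 (-0.21) or 2-cell replicate 3 (-0.26). Taf1b fell by 1.07 ± 0.18 in SCNT and 1.07 ± 0.17 in parthenogenetic embryos.

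**Figure D2:**
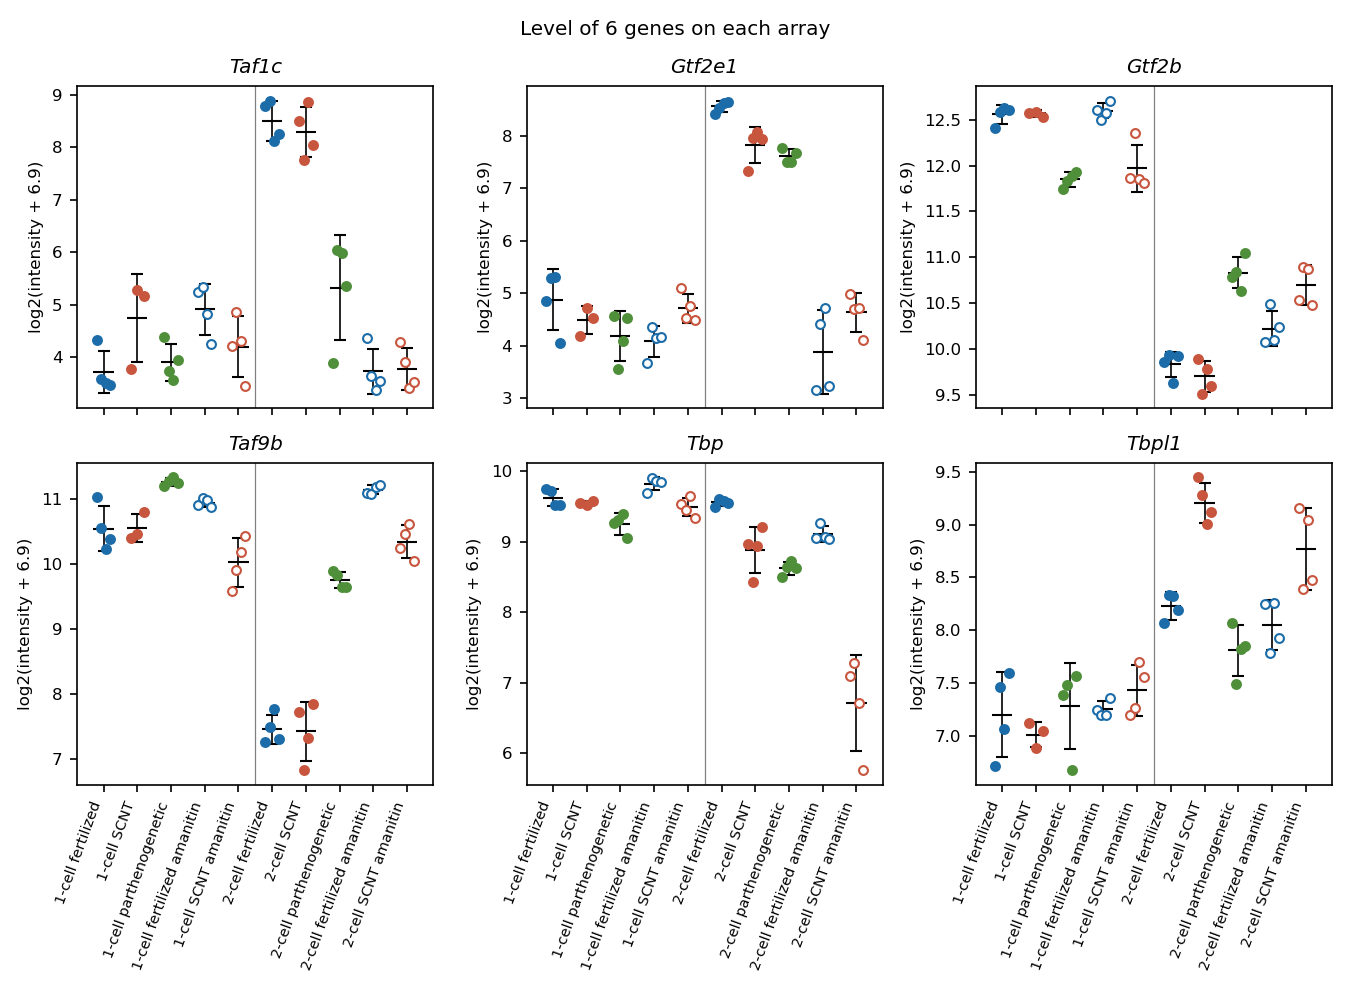
Log2 intensity of Taf1c, Gtf2e1, Gtf2b, Taf9b, Tbp and Tbpl1 on each of the 39 arrays, by group. Filled points are untreated and open points α-amanitin arrays, blue fertilized, red SCNT and green parthenogenetic, and bars give the mean ± SD. Gtf2e1 is high on untreated 2-cell arrays, and Taf1c on those of fertilized and SCNT embryos. Gtf2b is highest on 1-cell arrays. Taf9b is high on 1-cell and on α-amanitin 2-cell arrays and lowest on untreated fertilized and SCNT 2-cell arrays. Tbp is lowest on the SCNT α-amanitin 2-cell arrays (5.76 to 7.28).

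Promoter sequence was looked at for the members that rose or fell together. RefSeq start sites on GRCm38.p6 were matched by symbol for 33 of the 37 genes, and Taf2, Taf4b, Taf7 and Gtf2e2 were not among them. The 150 bases before the start are printed for 3 genes that rose with stage in every origin and were lower under α-amanitin (Gtf2e1 at chr16:37539790-37539939, minus strand, Gtf2f2 at chr14:76010866-76011015, minus strand, and Taf1d at chr9:15306064-15306213, plus strand) and for 2 that fell and were higher under α-amanitin (Gtf2b at chr3:142765097-142765246, plus strand, and Taf5 at chr19:47067598-47067747, plus strand). They were chosen after their values were seen. Capitals mark a CCAAT box (CCAAT) or a GC box (GGGCGG) on either strand.
Gtf2e1: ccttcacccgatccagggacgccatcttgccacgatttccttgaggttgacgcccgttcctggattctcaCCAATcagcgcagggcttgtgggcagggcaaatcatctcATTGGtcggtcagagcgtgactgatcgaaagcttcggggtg
Gtf2f2: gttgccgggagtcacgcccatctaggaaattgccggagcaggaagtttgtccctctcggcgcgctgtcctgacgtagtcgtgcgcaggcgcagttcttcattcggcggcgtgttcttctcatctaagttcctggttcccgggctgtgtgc
Taf1d: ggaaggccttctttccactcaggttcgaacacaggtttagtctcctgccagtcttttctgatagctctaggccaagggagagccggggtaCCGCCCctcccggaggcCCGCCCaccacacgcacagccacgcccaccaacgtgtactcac
Gtf2b: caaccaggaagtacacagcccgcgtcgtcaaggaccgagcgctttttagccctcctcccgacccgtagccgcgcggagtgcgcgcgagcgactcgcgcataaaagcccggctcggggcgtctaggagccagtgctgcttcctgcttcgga
Taf5: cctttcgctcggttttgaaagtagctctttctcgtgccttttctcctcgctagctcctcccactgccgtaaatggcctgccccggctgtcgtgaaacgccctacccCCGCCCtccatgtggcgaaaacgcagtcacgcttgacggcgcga

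These stretches hold 10, 14, 8, 20 and 15 CG dinucleotides in the order printed. Gtf2e1 has a CCAAT box on each strand, Taf1d has 2 GC boxes and Taf5 has 1, and neither box is in the stretches of Gtf2f2 and Gtf2b. In the 250 bases before the start, both strands read, GGGCGG was present in 19 of 33 member genes (57.6%) and in 35.4% of 27025 genes. The ETS core CCGGAAG was present in 9 of 33 (27.3%) and 7.8%, CCAAT in 11 of 33 (33.3%) and 37.5%, and TATAAA in 7 of 33 (21.2%) and 14.3%. A median of 17 CG dinucleotides was counted in the 41 start sites of member genes and of 6 in all 32851. A match describes letters only, and a missing match says only that these letters are not in this window.

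α-Amanitin asks which of these transcripts depend on transcription by RNA polymerase II in the embryo. At the 2-cell stage the inhibitor went with large differences in both directions. Apart from Taf1c and Gtf2e1 they ran from -4.15 (Taf1d) to 3.69 (Taf9b) in fertilized embryos. The falls of Taf1c and Gtf2e1 were built into their being tested, since they passed the filter through untreated 2-cell arrays alone. The TFIIF genes, Gtf2e1, Gtf2h4, Gtf2h5 and all 4 SL1 genes fell in both origins, and Taf9b, Taf5, Taf3, Taf4, Gtf2a1, Gtf2a2 and Gtf2b rose in both. Of the 35 genes 9 rose and 17 fell in fertilized embryos, where 64.4% of all genes were called (38.6% higher, 25.7% lower), and 11 rose and 18 fell in SCNT embryos, where 69.3% were called (39.7% higher, 29.6% lower). Arrays did not overlap for 26 members in each origin, and for 60.1% and 60.7% of all genes. The median difference was -0.31 and -0.45 against 0.28 over all genes in each origin. Bacterial poly(A) controls averaged 10.36 on treated SCNT 2-cell arrays, against 8.6 on untreated SCNT and 7.42 on treated fertilized 2-cell arrays. Hybridization controls averaged 10.88 on treated SCNT 2-cell arrays and 9.52 to 10.04 in the other groups. The part of these control differences in the SCNT results under α-amanitin was not tested. These comparisons share no arrays. Of the members higher in fertilized embryos 8 were higher in SCNT embryos (88.9% of 9 and 72.7% of 11), and 15 were lower in both (88.2% of 17 and 83.3% of 18), with none opposite. Over all genes the shares were 75.2% and 73.3%, and 82.1% and 71.3%.

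Taf1c had the largest fall in both origins, one built into its being tested, and the remaining SL1 genes fell as well. Under α-amanitin Taf1c read 4.37, 3.64, 3.38 and 3.54 in fertilized and 4.29, 3.91, 3.4 and 3.53 in SCNT 2-cell embryos, all at or below the level of the untreated 1-cell arrays. The differences were -4.77 ± 0.38 and -4.51 ± 0.38. Taf1d read 6.36, 6.01, 6.46 and 6.7 in fertilized and 7.61, 6.85, 6.85 and 7.29 in SCNT embryos, far below every untreated 2-cell array. It fell by 4.15 ± 0.18 and 3.28 ± 0.18, and the fertilized difference was -2.59 with its probe sets averaged. Taf1a fell by 2.25 ± 0.11 and 0.94 ± 0.11, and Taf1b changed by -2.46 ± 0.17 and -2.15 ± 0.17.

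Gtf2e1 read 3.16, 4.41, 4.71 and 3.23 in treated fertilized and 4.98, 4.7, 4.72 and 4.1 in treated SCNT 2-cell embryos. These values are at the 1-cell level and below the overall median, and the differences were -4.68 ± 0.3 and -3.2 ± 0.3. Gtf2f2 read 4.86, 5.31, 5.46 and 5.73 and 4.93, 4.35, 3.68 and 5.16, below every 1-cell array of any group. It fell by 3.8 ± 0.22 and 4.45 ± 0.22, and Gtf2f1 by 3.96 ± 0.19 and 4.41 ± 0.19. In TFIIH, Gtf2h5 fell by 2.93 ± 0.15 and 3.49 ± 0.15 (-1.96 and -1.9 with its probe sets averaged) and Gtf2h4 by 1.54 ± 0.19 and 3.87 ± 0.19. Gtf2h1 fell by 0.58 ± 0.1 in fertilized embryos and differed by 0 ± 0.1 in SCNT embryos.

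The TFIID genes divided. Taf9b read 11.1, 11.09, 11.19 and 11.22 in treated fertilized and 10.25, 10.47, 10.62 and 10.05 in treated SCNT 2-cell embryos, against at most 7.85 on the untreated arrays of the same origins. It rose by 3.69 ± 0.17 and 2.91 ± 0.17 (adjusted p = 1.18e-21 and 1.4e-18), on its brighter probe set only. Taf5 read 11.57, 11.4, 11.39 and 11.34 and 10.2, 10.25, 10.19 and 10.08, and Taf3 read 10.27, 10, 10.09 and 10.36 and 10.55, 10.56, 10.67 and 10.65. Both stood above all untreated 2-cell arrays of their origin. Taf5 rose by 2.01 ± 0.09 and 1.69 ± 0.09 and Taf3 by 1.26 ± 0.15 and 2.05 ± 0.15. Taf4 read 10.61, 10.69, 10.8 and 10.83 and 10.38, 10.28, 10.38 and 10.33, with rises of 0.78 ± 0.1 and 0.61 ± 0.1.

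Taf7 (-1.78 ± 0.26 and -3.77 ± 0.26), Taf8 (-2.82 ± 0.27 and -2.39 ± 0.27) and Taf1 (-1.18 ± 0.16 and -2.96 ± 0.16) fell in fertilized and SCNT embryos. With probe sets averaged the differences were -0.78 and -2.24 for Taf7 and -0.72 and -1.27 for Taf1. Another probe set of Taf7 differed by 1.75 and 0.33. Taf6 read 9.19, 9.24, 9.37 and 9.27 in treated fertilized embryos, overlapping the untreated arrays (-0.13 ± 0.14, adjusted p = 0.459), and 8.51, 8.79, 9.46 and 9.09 in treated SCNT embryos (0.55 ± 0.14, and 0.25 and not called after median centring). Taf11 read 8.58, 8.3, 8.45 and 8.4 (-0.04 ± 0.15) and 8.37, 8.57, 8.49 and 8.63, the latter above all untreated SCNT arrays (1.01 ± 0.15). Taf12 rose in fertilized embryos (1.21 ± 0.18) and Taf13 in SCNT embryos (0.81 ± 0.1). Taf10 was higher in both (0.46 ± 0.14, and 0.23 and not called with its probe sets averaged, and 0.36 ± 0.14), the SCNT call being lost without untreated replicate 3 (0.29) or treated replicate 2 (0.33). Taf2 was lower in fertilized embryos (-0.28 ± 0.11), a call lost without untreated replicate 1 or 4 (both -0.27) or treated replicate 1 (-0.25) or 2 (-0.27). Taf15 did not pass.

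On its brightest probe set Taf4b stayed well above its 1-cell level with the inhibitor. It read 10.23, 9.87, 9.84 and 10 in treated fertilized and 9.88, 10.03, 10.25 and 10.18 in treated SCNT 2-cell embryos, above every 1-cell array and below the untreated 2-cell arrays of the same origins. It fell by 0.85 ± 0.11 and 0.57 ± 0.11, and averaged over its 3 probe sets the SCNT difference turned to 0.07. The dimmest of the 3 averaged 6.03 in treated 1-cell and 5.87 in treated 2-cell fertilized embryos, and 5.41 and 7.55 in SCNT embryos. Taf5l read 7.15, 7.18, 7.4 and 6.76 and 7.81, 7.64, 7.67 and 7.64, and fell by 2.24 ± 0.15 and 1.1 ± 0.15. Taf6l differed by -0.38 ± 0.32 and -0.9 ± 0.32, the latter not called without treated SCNT replicate 3 (-0.28).

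TBP parted by origin. Tbp read 9.05, 9.27, 9.06 and 9.04 in treated fertilized embryos, just below the untreated arrays, and 7.1, 7.28, 6.71 and 5.76 in treated SCNT embryos, well below the lowest untreated one. The differences were -0.45 ± 0.17 (adjusted p = 0.022) and -2.17 ± 0.17 (adjusted p = 2.24e-14), and they differed by 1.72 ± 0.24 (adjusted p = 2.79e-07). The second probe set of Tbp was higher by 1.6 in treated fertilized embryos and averaging turned the fertilized value to 0.58, while in SCNT embryos the second probe set differed by -0.01. Tbpl1 read 8.25, 7.78, 8.26 and 7.93 in treated fertilized embryos (-0.17 ± 0.19, adjusted p = 0.435). In treated SCNT embryos it read 9.16, 8.39, 9.05 and 8.48, overlapping the untreated arrays. That difference of -0.45 ± 0.19 was called, but not without untreated replicate 1 (-0.37) or 2 (-0.43) or treated replicate 2 (-0.32) or 4 (-0.35), and averaging its probe sets turned it to 0.16.

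TFIIA and TFIIB stood higher with the inhibitor. Gtf2a1 read 10.56, 10.47, 10.39 and 10.56 in treated fertilized and 11.76, 11.46, 11.39 and 11.55 in treated SCNT 2-cell embryos, above all untreated 2-cell arrays of the same origins. The rises were 0.47 ± 0.12 (0.1 and not called with its probe sets averaged) and 1.82 ± 0.12, and Gtf2a2 rose by 1.3 ± 0.14 and 1.56 ± 0.14. Gtf2b read 10.07, 10.49, 10.1 and 10.24 and 10.53, 10.89, 10.87 and 10.48, with rises of 0.39 ± 0.11 and 1 ± 0.11. Gtf2a1l read 6.21, 4.2, 5.9 and 5.54 and 3.91, 4.95, 5.74 and 5.16 and did not pass in either origin (-0.19 ± 0.3 and -0.13 ± 0.3). Gtf2e2 read 9.26, 9.35, 9.49 and 9.41 (0.03 ± 0.13) and 9.39, 9.26, 8.99 and 9.76, the latter below the untreated arrays (-0.69 ± 0.13).

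**Figure D3:**
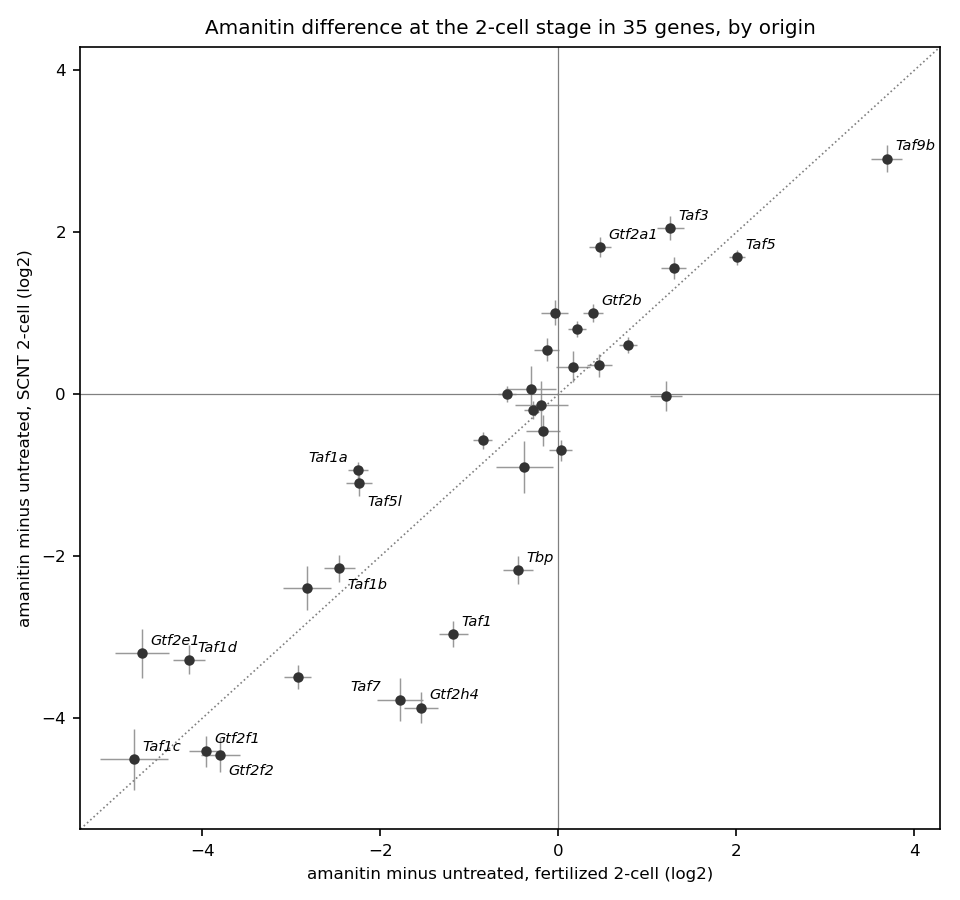
Difference between α-amanitin and untreated 2-cell embryos for the 35 tested genes, in fertilized embryos (x axis) and in SCNT embryos (y axis), both in log2 units, with bars for ± SE and a dotted line of equality. Tbp (-0.45 and -2.17), Gtf2h4 (-1.54 and -3.87) and Taf7 (-1.78 and -3.77) lie below the line and Gtf2a1 (0.47 and 1.82) above it.

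The size of the α-amanitin difference itself differed between SCNT and fertilized embryos for 20 of the 35 genes, 11 towards higher and 9 towards lower values in SCNT, where 38.9% of all genes were called (17.8% higher, 21.1% lower). The largest towards lower values were Gtf2h4 (-2.33 ± 0.27), Taf7 (-1.99 ± 0.37), Taf1 (-1.78 ± 0.23, and -0.55 and not called with its probe sets averaged) and Tbp. Towards higher values they were Gtf2e1 (1.48 ± 0.42, and 0.73 and not called with its probe sets averaged), Gtf2a1 (1.35 ± 0.16), Taf1a (1.31 ± 0.16) and Taf5l (1.14 ± 0.22). Gtf2f1, Gtf2f2, Taf1b and Taf1c fell in both origins, and for them the difference between origins did not pass (-0.44 ± 0.27, -0.65 ± 0.31, 0.32 ± 0.24 and 0.26 ± 0.54).

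Within the treated embryos the 2-cell stage can be set against the 1-cell stage, a comparison on arrays that the untreated one does not use. In fertilized embryos 15 members rose and 13 fell, where 40.7% of all genes were called (21.6% higher, 19.1% lower). With median centring the count was 2 and 15, where 1002 of the 14871 genes tested that way were higher and 4417 lower. In SCNT embryos 13 rose and 13 fell, where 55.5% were called (25.7% higher, 29.8% lower). Median centring gave 7 and 16 there, where 2526 of all genes were higher and 5361 lower. Gtf2b (-2.37 ± 0.11 and -1.28 ± 0.11) and Gtf2a1l (-2.76 ± 0.3 and -2.15 ± 0.3) fell with the inhibitor present as well. Taf9b did not pass (0.2 ± 0.17 and 0.31 ± 0.17). Taf5 was higher by 0.56 ± 0.09 in treated fertilized embryos, 0.18 and not called after median centring, and fell by 0.74 ± 0.09 in treated SCNT embryos.

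Taf4b rose by 1.15 ± 0.11 and 1.36 ± 0.11 in treated embryos, and by 0.6 and 0.87 after median centring, both still called. Its dimmest probe set was not higher at the 2-cell stage in treated fertilized embryos (6.03 and then 5.87). Gtf2e1 did not pass (-0.2 ± 0.3 and -0.09 ± 0.3), and the TFIIF genes fell, Gtf2f1 by 1.82 ± 0.19 and 2.3 ± 0.19 and Gtf2f2 by 1.91 ± 0.22 and 1.76 ± 0.22. Taf1a (-2.29 and -2.25), Taf1b (-2.27 and -2.96) and Taf7 (-2.63 and -3.25) fell in both. Tbp fell by 0.72 ± 0.17 and 2.78 ± 0.17, the first being -0.29 and not called with its probe sets averaged. Of the 18 members that rose in untreated fertilized embryos 10 also rose in treated ones (55.6% of 18 and 66.7% of 15), and of the 8 that fell 5 also fell (62.5% of 8 and 38.5% of 13). The 5 include Taf15, whose falls were built into its being tested. Gtf2f1, Gtf2f2, Gtf2h5, Taf1c, Taf5 and Taf8 were called in opposite directions. Over all genes the shares were 24.8% and 29.6%, and 30.5% and 54.8%. The shares of risers depend on the scaling, since with median centring only Taf10 and Taf4b of the 10 were still called in treated embryos, and Gtf2h4, Taf11 and Taf6 turned direction there (-0.1, -0.01 and -0.02).

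**Figure D4:**
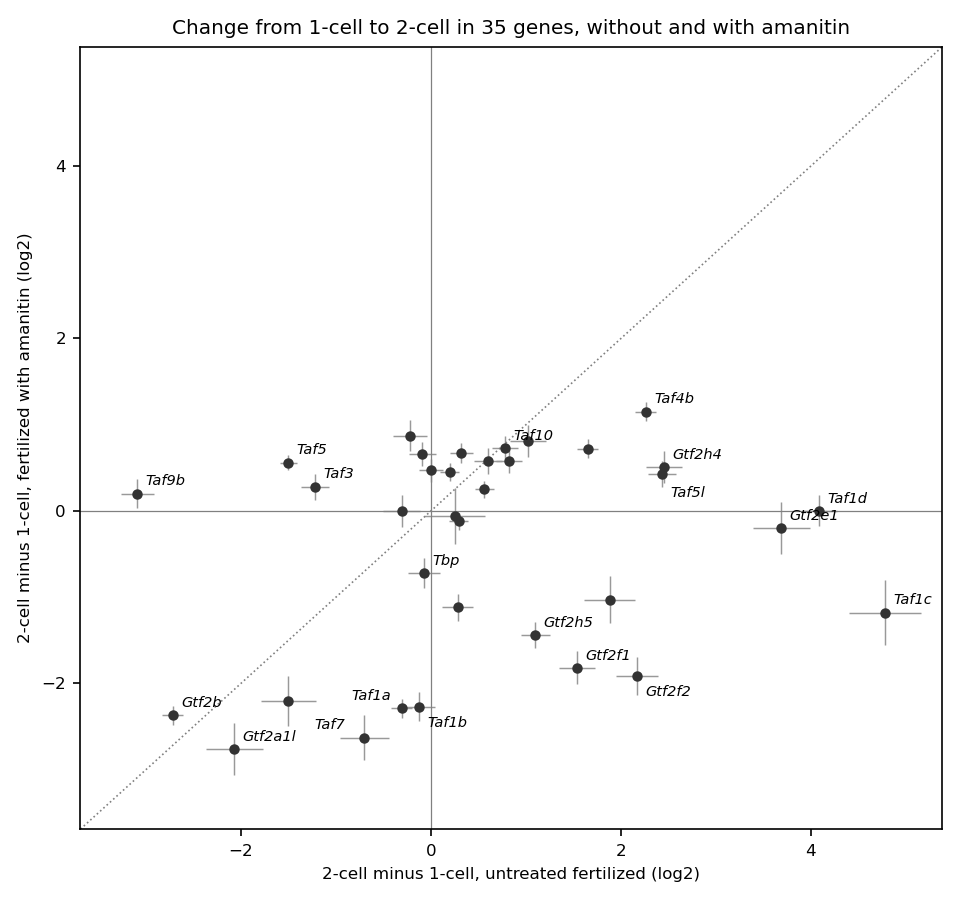
Difference between the 2-cell and the 1-cell stage in fertilized embryos for the 35 tested genes, untreated (x axis) and with α-amanitin (y axis), both in log2 units, with bars for ± SE and a dotted line of equality. Gtf2b (-2.72 and -2.37) lies near the line, Taf1d (4.09 and 0) and Gtf2e1 (3.69 and -0.2) lie far below it, and Taf9b (-3.09 and 0.2) lies above it. The untreated rise of Gtf2e1 was built into its being tested.

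At the 1-cell stage the inhibitor went with few calls. In fertilized embryos 5 members were higher and 2 lower, where 5.99% of all genes were called (3.57% higher, 2.43% lower). Taf2 (0.66 ± 0.11), Taf4 (0.53 ± 0.1) and Taf13 (0.52 ± 0.1) rose. With the probe sets of a gene averaged Taf2 (0.12) and Taf4 (0.35) were not called. Taf4 read 10.18, 10.4, 10.2 and 10.36 in treated embryos, above all untreated ones. Gtf2a2, Taf10, Gtf2e2 and Gtf2f1 completed the 7, and each was lost without at least 1 array. The count rose to 11 without untreated replicate 1 and was 3 without replicate 2, 4 without replicate 3 or 4, and 4 without treated replicate 3. Median centring gave 14 higher and none lower, where 2715 of the 14871 genes tested that way were higher and 152 lower.

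In SCNT 1-cell embryos only Gtf2b passed, where 0.43% of all genes were called (0.0806% higher, 0.349% lower), and 6 members had an unadjusted p below 0.05. Gtf2b read 11.87, 12.36, 11.86 and 11.81 in treated and 12.53 to 12.59 in untreated SCNT 1-cell embryos, without overlap (-0.59 ± 0.12, adjusted p = 0.00939). The call was lost without any untreated array, and 2 members were called without treated replicate 3. In treated fertilized 1-cell embryos Gtf2b read 12.61, 12.5, 12.58 and 12.71, overlapping the untreated ones. Tbp, Tbpl1, Taf9b, Taf4b, Gtf2a1 and Gtf2a1l did not pass in either origin. Tbp read 9.69, 9.9, 9.86 and 9.84 in treated fertilized and 9.53, 9.45, 9.65 and 9.33 in treated SCNT embryos, and Tbpl1 read 7.24, 7.2, 7.2 and 7.36 and 7.2, 7.26, 7.7 and 7.56. Treated and untreated SCNT arrays did not overlap for Tbpl1 (0.42 ± 0.2, adjusted p = 0.591). Taf9b read 10.92, 11.02, 10.99 and 10.89 and 9.59, 9.91, 10.19 and 10.44, and Taf4b read 8.8, 8.85, 8.96 and 8.73 and 8.9, 8.56, 8.83 and 8.64. The differences of Taf9b were 0.4 ± 0.17 and -0.53 ± 0.18. Gtf2a1 read 9.75, 9.94, 9.72 and 9.89 and 9.18, 9.51, 9.22 and 9.71, and Gtf2a1l read 7.95, 8.27, 8.3 and 8.38 and 7.65, 7.24, 6.81 and 6.66, with Gtf2a1l differing by 0.5 ± 0.3 in fertilized embryos.

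Between cloned and fertilized 1-cell embryos, with 3 SCNT arrays, 5.71% of the 35 members passed, near the share over all genes. In the limma fit 8 members had an unadjusted p below 0.05. Only Taf1d, higher in SCNT embryos by 0.84 ± 0.19, and Taf7, lower in them (-1.11 ± 0.28), passed, where 5.56% of all genes were called (2.88% higher, 2.69% lower). With probe sets averaged neither passed (0.43 and -0.41), and Taf7 was lost without fertilized replicate 1 (-0.8) or SCNT replicate 1 (-1.06) or 4 (-1.02). Bacterial poly(A) control probe sets averaged 3.62 on untreated and 3.75 on treated 1-cell SCNT arrays against 6.19 to 10.36 in the other groups. The highest, 10.36, was that of treated SCNT 2-cell embryos. The part of these differences in the labelling controls in the results was not tested.

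Parthenogenetic 1-cell embryos stood further away. Against fertilized embryos 9 members were higher and 6 lower, where 20.4% of all genes were called (10.9% higher, 9.55% lower). With median centring they were 12 and 5, where 2437 of all genes were higher and 1073 lower. Among the 15 TAFs of TFIID 8 were higher and none lower, led by Taf2 (0.99 ± 0.11), Taf10 (0.9 ± 0.14) and Taf9b (0.72 ± 0.17, and 0.42 and not called with its probe sets averaged). The SL1 genes Taf1a (-1.58 ± 0.11) and Taf1b (-0.82 ± 0.17) were lower, as were Gtf2h5 (-0.93 ± 0.15), Gtf2f1 (-0.89 ± 0.19) and Gtf2b (-0.71 ± 0.11). Gtf2e2 completed the 6 lower genes and was lost without fertilized replicate 4 (-0.38) or parthenogenetic replicate 1 (-0.4) or 3 (-0.35). Between SCNT and parthenogenetic 1-cell embryos 6 members were higher in SCNT and 10 lower, where 14.2% of all genes were called (7.01% higher, 7.2% lower). Median centring made this 4 and 11, where 770 of all genes were higher and 1592 lower. Taf1a stood 1.43 ± 0.12 higher in SCNT.

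At the 2-cell stage 8 members were higher and 10 lower in SCNT than in fertilized embryos, where 30.6% of all genes were called (14.3% higher, 16.3% lower). Arrays did not overlap for 17 members and 31.3% of all genes. As deposited the split was 6 and 12, where 2450 of all genes were higher and 2097 lower. With median centring it was 4 and 14, where 1634 of all genes were higher and 2887 lower. Lower in SCNT were the SL1 genes Taf1a (-0.94 ± 0.11) and Taf1b (-0.9 ± 0.17) and the TFIID genes Taf6 (-0.98 ± 0.14), Taf11 (-0.97 ± 0.15) and Taf5 (-0.93 ± 0.09). All SCNT arrays of Taf6 (8.27 to 8.61), Taf11 (7.47 to 7.54) and Taf5 (8.41 to 8.65) lay below all fertilized arrays. Tbp was lower as well (-0.67 ± 0.17, adjusted p = 0.00227), with SCNT arrays from 8.43 to 9.2 and fertilized arrays from 9.49 to 9.61.

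Higher in SCNT were Tbpl1 (0.99 ± 0.19, adjusted p = 6.01e-05), Gtf2e2 (0.69 ± 0.13, adjusted p = 4.88e-05) and Taf12 (0.69 ± 0.18, adjusted p = 0.002). The arrays did not overlap for any of them. For Tbpl1 the second probe set differed by -0.4, and averaged with the first the difference was 0.29 and not called. Also called higher were Gtf2h1, Gtf2h4 and Gtf2h5 of TFIIH, Gtf2a2 and Taf15, at 0.31 to 0.83. Median centring left Gtf2h1 at 0.07, Gtf2h4 at 0.23, Gtf2h5 at 0.25 and Gtf2a2 at 0.25, all not called. Gtf2h1 was lost without fertilized replicate 3 or SCNT replicate 2 (both 0.27) or 4 (0.28), and Gtf2h4 without fertilized replicate 3 (0.5) or 4 (0.47) or SCNT replicate 1 (0.49), 3 (0.46) or 4 (0.52). Taf15 was lost without any 1 of 5 arrays (0.69 to 0.8), namely fertilized replicate 1, 2 or 4 and SCNT replicate 1 or 4. All its arrays compared were below the overall median, at 3.73 to 4.8 in fertilized and 4.59 to 5.24 in SCNT embryos. Gtf2a1 was lower by 0.31 ± 0.12, with overlap, and lost without fertilized replicate 3 (-0.29) or 4 (-0.21) or SCNT replicate 1 (-0.26), 3 (-0.25) or 4 (-0.3).

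Gtf2b (-0.14 ± 0.11), Taf9b (-0.03 ± 0.17), Taf4 (-0.22 ± 0.1), Taf4b (-0.18 ± 0.11), Taf1c (-0.21 ± 0.38), Taf1d (-0.1 ± 0.18) and Gtf2f2 (-0.16 ± 0.22) did not pass between SCNT and fertilized 2-cell embryos, and Gtf2e1 (-0.73 ± 0.3) just missed (adjusted p = 0.0591) although its arrays did not overlap.

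Parthenogenetic 2-cell embryos differed from fertilized ones in more members, 13 higher and 14 lower, where 47.4% of all genes were called (26.4% higher, 21% lower). With median centring the split was 10 and 18, where 3346 of all genes were higher and 3392 lower. Arrays did not overlap for 29 members and 45.3% of all genes. Higher were Taf9b (2.3 ± 0.17, adjusted p = 1.36e-14), Taf5 (1.12 ± 0.09), Gtf2a2 (1 ± 0.14), Gtf2b (0.99 ± 0.11) and Taf4 (0.72 ± 0.1). Among the TFIID TAFs 9 were higher and 3 lower. Lower were Taf1c (-3.19 ± 0.38, adjusted p = 4.26e-09), Taf5l (-1.79 ± 0.15, adjusted p = 1.05e-12), Taf1b (-1.76 ± 0.17), Taf8 (-1.63 ± 0.27), Gtf2f2 (-1.51 ± 0.22) and Taf1a (-1.39 ± 0.11). Taf1c ranged from 3.89 to 6.05 in parthenogenetic and from 8.12 to 8.88 in fertilized embryos, and Taf9b from 9.65 to 9.9 and from 7.26 to 7.77, far apart on every array. Taf1c passed the filter through untreated 2-cell arrays alone, mostly fertilized and SCNT ones. Its difference here was therefore partly built into its being tested.

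Tbp was lower in parthenogenetic 2-cell embryos (-0.94 ± 0.17, adjusted p = 1.62e-05) and Taf4b too (-0.78 ± 0.11), while Tbpl1 did not pass (-0.42 ± 0.19). Gtf2e1 was lower by 0.95 ± 0.3 but not with its probe sets averaged (-0.17) or with a constant of 1.8 (-0.96), and Taf1 was lower by 1.4 ± 0.16 but not with its probe sets averaged (-0.35). Gtf2e2 (-0.81 ± 0.13), Gtf2h4 (-1.29 ± 0.19) and Gtf2h5 (-0.75 ± 0.15) were lower. Taf1d was higher by 0.59 ± 0.18, but 0.42 after median centring and 0.03 with its probe sets averaged were not called. Between SCNT and parthenogenetic 2-cell embryos 14 members were higher and 13 lower in SCNT, where 54.6% of all genes were called (24.4% higher, 30.2% lower). The largest were Taf1c (2.98 ± 0.38), Gtf2h4 (1.83 ± 0.19) and Taf8 (1.71 ± 0.27) upwards and Taf9b (-2.33 ± 0.17), Taf5 (-2.05 ± 0.09) and Taf11 (-1.64 ± 0.15) downwards. That of Taf1c was again partly built into its being tested.

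**Figure D5:**
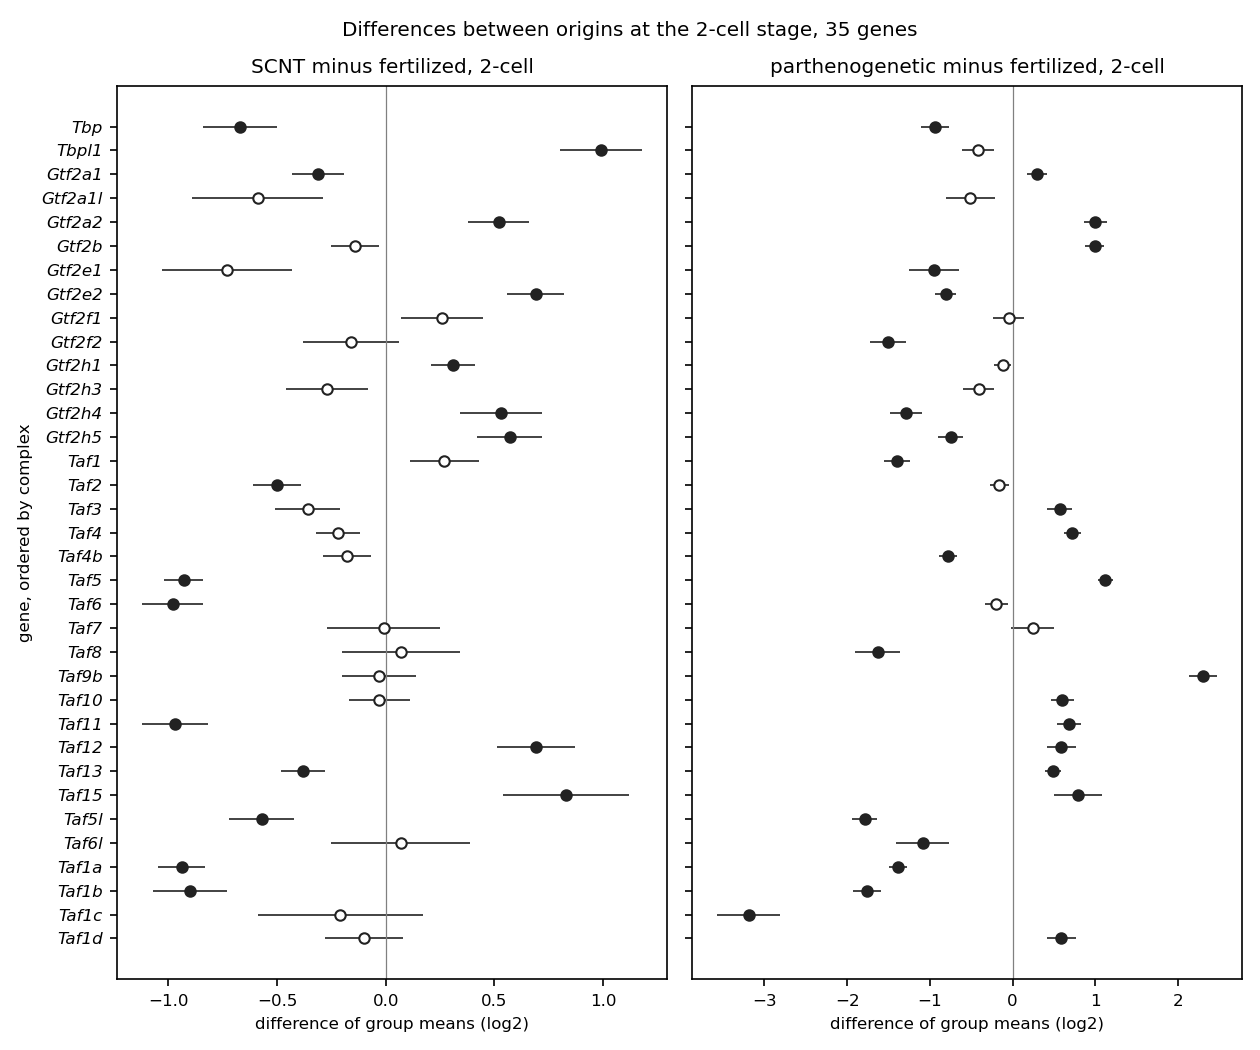
Differences of the 35 tested genes at the 2-cell stage, SCNT minus fertilized and parthenogenetic minus fertilized, in log2 units with bars for ± SE and filled points for adjusted p below 0.05. Both comparisons use the same fertilized arrays. Taf9b (-0.03 and 2.3), Taf5 (-0.93 and 1.12) and Taf1c (-0.21 and -3.19) show the widest gaps between them. For Taf1c the gap was partly built into its being tested.

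With median centring the stage change differed between SCNT and fertilized embryos for 2 members towards higher and 11 towards lower values in SCNT. Over all genes 916 were higher and 1933 lower that way. In the main fit it differed for 12 members, 4 towards higher and 8 towards lower values. There 19.1% of all genes were called (8.64% higher, 10.4% lower). Besides Tbpl1, Taf5, Taf5l and Taf6, these included Gtf2h5 (0.98 ± 0.22, and 0.46 and not called with its probe sets averaged), Taf1b (-0.94 ± 0.25) and Taf1d (-0.94 ± 0.26, and -0.34 and not called with its probe sets averaged). With median centring the stage change differed between parthenogenetic and fertilized embryos for 2 and 12 members, where 1875 of all genes were higher and 2860 lower. In the main fit it differed for 15 members, 6 and 9, where 35.5% of all genes were called (19.8% higher, 15.7% lower). Besides Taf1c, Gtf2b, Taf9b, Taf4b, Taf5l and Gtf2f2, these included Gtf2h4 (-1.77 ± 0.27), Taf1 (-1.74 ± 0.23, and -0.24 and not called with its probe sets averaged) and Taf2 (-1.15 ± 0.16).

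With α-amanitin, SCNT and fertilized 1-cell embryos differed in 13 members, 2 higher and 11 lower in SCNT, where 21.6% of all genes were called (10.2% higher, 11.4% lower). Median centring made this 0 and 15, where 772 of all genes were higher and 3049 lower. Led by Taf7 (-1.38 ± 0.26), Gtf2a1l (-1.13 ± 0.3), Gtf2f2 (-0.96 ± 0.22) and Taf9b (-0.92 ± 0.17, and -0.28 and not called with its probe sets averaged), the lower genes came from TFIIA, TFIIB, TFIIF and TFIID. Gtf2h1 (0.57 ± 0.1, and 0.2 and not called after median centring) was higher. At the 2-cell stage treated SCNT and fertilized embryos differed in 22 members, 11 and 11, where 43.3% of all genes were called (18.6% higher, 24.7% lower). Median centring made this 5 and 12, where 2004 of all genes were higher and 4143 lower. Tbp (-2.39 ± 0.17), Taf7 (-2 ± 0.26), Gtf2h4 (-1.8 ± 0.19) and Taf1 (-1.51 ± 0.16, and -0.48 and not called with its probe sets averaged) were lower in SCNT. Taf15 (1.2 ± 0.29, and 0.71 with the larger constant), Gtf2a1 (1.05 ± 0.12) and Gtf2h1 (0.9 ± 0.1) were higher. Every one of these arrays but SCNT replicate 4 (5.81) was below the overall median for Taf15. Poly(A) controls averaged 10.36 on these SCNT and 7.42 on these fertilized 2-cell arrays, and the part of that difference was not tested.

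Other genes of transcription initiation were taken from a list of 37, of which 36 were tested and Tbpl2 was not analysed here. They hold the kinase and helicase part of TFIIH, regulators of TBP, initiation factors of RNA polymerases I and III, partners in SAGA and the TFII-I family. From the 1-cell to the 2-cell stage 24 rose and 9 fell in fertilized, 22 and 6 in SCNT and 12 and 11 in parthenogenetic embryos, where 60.1%, 60.8% and 49.2% of all genes were called (25.8%, 26.2% and 21.7% higher). In fertilized embryos the largest rises were those of Atxn7l3 (4.87 ± 0.5), a SAGA deubiquitinase subunit, Btaf1 (4.5 ± 0.32), which strips TBP from DNA, and Dr1 (4.48 ± 0.17), a subunit of the TBP repressor NC2. The largest falls were those of Gtf2ird1 (-2.05 ± 0.23), Drap1 (-1.89 ± 0.14), the partner of Dr1, and Sgf29 (-1.22 ± 0.18).

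With α-amanitin at the 2-cell stage 5 of the 36 rose and 26 fell in fertilized and 7 rose and 24 fell in SCNT embryos, where 25.7% and 29.6% of all genes fell. Dr1 fell by 4.65 ± 0.17 and 5.73 ± 0.17 while Drap1 rose by 2.07 ± 0.14 and 1.59 ± 0.14. All 5 remaining TFIIH genes fell in both origins, as did the core subunits Gtf2h4 and Gtf2h5. Cdk7, the TFIIH kinase, fell by 4.08 ± 0.17 and 4.36 ± 0.17, and Ercc3, the XPB helicase, by 2.04 ± 0.28 and 4.03 ± 0.28. Parthenogenetic against fertilized 2-cell embryos gave 5 higher and 25 lower, where 26.4% of all genes were higher and 21% lower, with Btaf1 (-2.59 ± 0.32), Brf2 (-2.43 ± 0.2), an RNA polymerase III factor, and Ccnh (-2.28 ± 0.19), the cyclin of Cdk7, lowest and Gtf2ird1 (1.74 ± 0.23), Gtf3c4 (1.3 ± 0.35) and Drap1 (0.98 ± 0.14) highest. All 5 remaining TFIIH genes were again lower. SCNT against fertilized 2-cell embryos gave 4 higher and 12 lower, where 14.3% of all genes were higher and 16.3% lower.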

How the data were processed

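Poly(A) RNA was amplified, labelled and hybridised to mouse Affymetrix arrays, per the labels' protocols. The authors deposited linear intensity values for 45101 probe sets, and the mean of each array without its lowest and highest 2% was 150, so every array had been scaled to one level. The software is not given in the sources used here. The letter A before a replicate number was read as α-amanitin, which the labels spell out for most SCNT samples.

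The 64 control probe sets were left out. Of the others 34945 named 1 gene, 932 several and 9160 none in the platform annotation. Deposited intensities were turned into log2(intensity + 6.9), the 20th percentile, and quantile normalized because array medians ranged from 4.92 to 5.74. Genes above the overall median on at least 4 arrays were tested with limma 3.58.1 in R 4.3.3 (1 mean per group, trended eBayes, 29 residual degrees of freedom, Benjamini-Hochberg at 0.05) in 17 comparisons and 3 differences of differences. On simulated data for SCNT minus fertilized 2-cell embryos (14880 genes, 200 changed) changes of size 0.5, 1 and 2 (log2) were found in 19.4%, 61.2% and 95.5% of cases. Of its 126 calls 7.14% were false. The simulation used independent noise and changed far fewer genes than the 30.6% called in that comparison. Its rates depend on these settings and need not hold for the data.

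The members and gene lists were chosen with earlier results of these data known. Any member could be named. Values on every array were given for Tbp, Tbpl1, Gtf2b, Taf4, Taf4b, Taf9b, Gtf2a1 and Gtf2a1l and for the 2 largest non-overlapping rises and falls of the 7 main comparisons, up to 4 genes each way were named in the others, and the 3 largest each way among the other initiation genes. Alternatives were another constant, no filter, other scalings, probe sets averaged per gene, only the arrays compared, no trend, the replicate number as a block, and leaving out single arrays.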

Additional observations from a re-analysis of the deposited data

Results flagged for a closer look

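Single arrays stood apart from the rest of their group of 4 by Dixon's criterion for 9 of 162 groups looked at, where chance marks about 1 in 20, and groups of 3 were not examined. Gtf2a1l measured 5.97 on 2-cell fertilized replicate 1 against 5.51 to 5.58 on the other arrays, and 5.24 on 2-cell SCNT replicate 3 against 5 to 5.02. Gtf2b measured 12.41 on 1-cell fertilized replicate 1 (others 12.59 to 12.63), and Taf1c 4.32 on the same array (others 3.47 to 3.58). On 1-cell SCNT α-amanitin replicate 2, Gtf2b measured 12.36 (others 11.81 to 11.87), Taf11 7.39 (others 8.01 to 8.12) and Taf6 8.56 (others 8.22 to 8.25). Gtf2f2 measured 6.62 on 1-cell parthenogenetic replicate 2 (others 6.9 to 6.93), and Tbp 9.27 on 2-cell fertilized α-amanitin replicate 2 (others 9.04 to 9.06).

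Differences between origins that passed limma's test of the difference itself were marked for the members with the largest values. The α-amanitin difference at the 2-cell stage, SCNT minus fertilized, was 1.48 for Gtf2e1, 1.35 for Gtf2a1, 1.31 for Taf1a and 1.14 for Taf5l, and -2.33 for Gtf2h4, -1.99 for Taf7, -1.78 for Taf1 and -1.72 for Tbp. The stage change, SCNT minus fertilized, was 1.18 for Tbpl1, 1.09 for Taf7, 0.98 for Gtf2h5 and 0.64 for Gtf2e2, and -0.94 for Taf1b and for Taf1d and -0.91 for Taf5 and for Taf5l. Of these, Taf7 was lost without any of 10 single arrays (0.79 without 1-cell fertilized replicate 1) and Gtf2e2 at 0.35 after median centring. The value of Taf7 holds for its brightest probe set only. The others differed between stages by -1.2 and -2 in SCNT and by -0.69 and -1.77 in fertilized embryos, lower in SCNT. The stage change, parthenogenetic minus fertilized, was 1.7 for Gtf2b, 1.57 for Taf9b, 0.84 for Taf3 and 0.83 for Gtf2f1, and -3.37 for Taf1c, -1.77 for Gtf2h4 and -1.74 for Taf1 and for Taf5l. That of Taf1c was partly built into its being tested. Median centring left Taf3 at 0.42 and Gtf2f1 at 0.5, both not called.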

How the results depend on the processing

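Over all tested members and comparisons, leaving out single arrays kept 6019 values on their side of the threshold, lost 186 calls, added 60 and reversed 0, and the other alternatives kept 6621, lost 171, added 120 and reversed 28. Counts of called members moved by over 1.5 times in 4 comparisons. For α-amanitin in fertilized 1-cell embryos the count of 7 became 14 with median centring, 3 with probe sets averaged and 4 with only the arrays compared, and 3 to 11 with an array left out. In SCNT 1-cell embryos it became 0 with median centring and with only the arrays compared, and 0 to 2 with an array left out. Between SCNT and fertilized 1-cell embryos it became 0 with probe sets averaged and 1 with only the arrays compared, and 1 to 3 with an array left out. For stage in treated fertilized embryos it became 17 with median centring.

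Median centring turned the stage change of Taf10 (-0.04) and Taf4 (-0.35) in SCNT embryos, of Gtf2a1 (-0.28), Gtf2a2 (-0.62), Gtf2h1 (-0.22), Taf10 (-0.06), Taf2 (-0.03) and Taf4 (-0.4) in parthenogenetic embryos, of Gtf2e2 (-0.15), Gtf2h4 (-0.1), Taf11 (-0.01), Taf4 (0) and Taf6 (-0.02) in treated fertilized embryos and of Gtf2e2 (-0.43) and Gtf2h1 (-0.29) in treated SCNT embryos. Averaging probe sets turned the stage change of Taf7 in SCNT (-0.94) and of Taf2 (-0.31) and Taf8 (-0.06) in parthenogenetic embryos, the 2-cell α-amanitin difference of Tbp in fertilized (0.58) and of Taf4b (0.07) and Tbpl1 (0.16) in SCNT embryos, Taf1d between SCNT and parthenogenetic 2-cell embryos (0.07), and Taf10 (0.49) and Taf1d (-0.04) between treated 2-cell SCNT and fertilized embryos. It also turned the difference in α-amanitin response of Gtf2h5 (0.06), Taf10 (0.75) and Taf1d (-0.13), and in parthenogenetic stage change of Taf1d (-0.51). The cause was not tested.

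With the replicate number as a block 26, 23 and 28 members were called for stage in fertilized, SCNT and parthenogenetic embryos. Residuals of same-numbered arrays correlated at -0.05 to 0.092, so the numbers were not taken as pairs. The number of arrays and the dim signal of Gtf2e1, Taf1c and Taf15 outside their high groups limit the precision. Among single called values of the members, 44 moved by over 1.5 times with probe sets averaged and 40 with median centring while keeping direction and call.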
